A study of Mus musculus with 19 samples.

Results

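The genes described here are 10 members of the BCL2 family and of the p53 target genes, chosen by mouse symbol, out of 33919 gene identifiers in the expression table. All 10 were found. RNA was sequenced from Kupffer cells, the macrophages that line the liver sinusoids, sorted from digested livers of female C57BL/6 mice. The MCD_MoKCs group (n = 7) holds the monocyte-derived subset, from mice kept for 4 weeks on a diet lacking methionine and choline (MCD), which induces steatohepatitis. The MCD_EmKCs group (n = 6) holds the embryo-derived subset under that same diet, and Chow_EmKCs (n = 6) the embryo-derived subset from animals fed chow. The mice are described as wild type, so no allele or transgene separates the groups. Origin was read from the sort alone: CLEC2+ TIMD4- cells were taken as MoKCs and CLEC2+ TIMD4+ cells as EmKCs. No chow MoKCs were among the samples. The sources do not say which libraries came from separate animals, so every p-value measures the spread between these samples, which may be technical.

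Proteins of the BCL2 family decide whether the outer mitochondrial membrane is opened during apoptosis. Anti-apoptotic members (BCL2, BCL-XL, MCL1) hold the effectors BAX and BAK in check, and BH3-only members (BIM, PUMA, NOXA) bind the anti-apoptotic proteins and release or activate the effectors. The transcription factor p53 induces PUMA, NOXA, BAX, the CDK inhibitor p21 and its own ubiquitin ligase MDM2, and resident Kupffer cells are known to be lost in steatohepatitis. Several of these proteins are controlled mainly by their stability and binding, which RNA does not show.

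Libraries held 11642240 to 30983487 reads, with 14643 to 16847 genes detected. Values are normalised reads, that is, a gene's read count over the scaling factor of its library, and a fold change is on the log2(value + 1) scale with its standard error (SE). Genes reaching 10 in 6 or more libraries entered a limma fit of all 19 libraries, and adjusted p-values (Benjamini-Hochberg, threshold 0.05) run over all 14875 genes tested. All 10 members passed this filter on low values. The 9 Kupffer cell markers were all detected and summed to 97150 to 148489 normalised reads in MCD_MoKCs, 346033 to 405714 in MCD_EmKCs and 366450 to 477193 in Chow_EmKCs. These markers include Timd4 and Clec1b, which encodes CLEC2, so the sort itself set part of these sums. In bulk samples, fewer cells that express a gene and less RNA per cell cannot be told apart.

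The 250 bases before the transcription start are shown for Cdkn1a and Bcl2l11, which differed between groups, and for Mdm2 and Bax, which did not pass the test. Sequences are from RefSeq, build GRCm38.p6, each printed 5′ to 3′ on the strand of its gene, with motif matches in capitals. The windows are chr17:29093519-29093768 (plus strand) for Cdkn1a, chr2:128125788-128126037 (plus) for Bcl2l11, chr10:117710759-117711008 (minus) for Mdm2 and chr7:45466899-45467148 (minus) for Bax.
Cdkn1a: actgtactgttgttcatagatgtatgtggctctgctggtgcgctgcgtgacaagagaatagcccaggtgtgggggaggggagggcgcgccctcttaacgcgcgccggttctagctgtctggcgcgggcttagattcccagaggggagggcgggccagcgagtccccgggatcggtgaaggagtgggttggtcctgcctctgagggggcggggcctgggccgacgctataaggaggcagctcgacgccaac
Bcl2l11: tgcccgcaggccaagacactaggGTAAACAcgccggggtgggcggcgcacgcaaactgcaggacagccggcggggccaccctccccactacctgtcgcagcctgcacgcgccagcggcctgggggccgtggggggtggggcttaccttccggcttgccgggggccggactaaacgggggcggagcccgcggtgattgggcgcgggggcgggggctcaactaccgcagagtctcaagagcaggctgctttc
Mdm2: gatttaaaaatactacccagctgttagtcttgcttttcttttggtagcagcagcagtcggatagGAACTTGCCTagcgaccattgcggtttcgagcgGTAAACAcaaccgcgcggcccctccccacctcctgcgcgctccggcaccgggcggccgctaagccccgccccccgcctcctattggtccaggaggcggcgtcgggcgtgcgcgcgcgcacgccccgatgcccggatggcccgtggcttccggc
Bax: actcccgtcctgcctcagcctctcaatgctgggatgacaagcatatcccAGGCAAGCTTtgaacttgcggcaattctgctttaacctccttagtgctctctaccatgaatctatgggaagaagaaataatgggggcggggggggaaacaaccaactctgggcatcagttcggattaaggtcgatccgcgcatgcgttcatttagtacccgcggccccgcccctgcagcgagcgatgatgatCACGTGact
Both strands were searched for the p53 decamer, the FOXO core GTAAACA, the AP-1 motif TGANTCA, the CRE and the E-box CACGTG. The p53 decamer began 186 bases before the start in Mdm2 and 201 bases before it in Bax, and is present in 7.13% of 32851 promoter windows of this length. The FOXO core began 227 bases before the Bcl2l11 start and 153 before that of Mdm2, and is present in 3.17% of windows. The E-box, present in 6.02%, began 9 bases before the Bax start. The AP-1 motif (6.75% of windows) and the CRE (1.55%) matched none of the 9 members searched, and Cdkn1a, Bcl2, Bcl2l1, Mcl1, Bak1 and Bbc3 held no match to any motif in these windows. RefSeq lists other starts for Cdkn1a, Bcl2l11, Bcl2l1 and Bbc3. For Mcl1 and for Bak1, 0 of 2 coding transcripts began within 50 bases of the start used. Sequence outside these windows was not searched, and the matches are letters only.

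The diet comparison asks what MCD feeding did to embryo-derived cells. Cdkn1a and Bcl2l1 were higher in MCD_EmKCs than in Chow_EmKCs, and no member was lower. These are 2 of 10 members, where 4.08% of all genes tested were called, 2.5% higher and 1.58% lower. The median log2 fold change was 0.30 over the members and -0.04 over all genes. The second comparison sets monocyte-derived against embryo-derived cells on the same diet: 1 of 10 members passed, again Cdkn1a, against 10.5% of all genes (5.64% higher, 4.9% lower), and the member median was -0.02. In MCD_MoKCs against Chow_EmKCs, where diet and origin both differ, 3 of 10 members were higher (Cdkn1a, Bcl2l11 and Bcl2l1) and 0 lower, against 16.8% of all genes called, 8.68% higher and 8.08% lower. The member median was 0.13. By limma, 0 members were lower in any comparison; at an unadjusted p under 0.05 the lower counts were 0, 1 (Bbc3 in MCD_MoKCs against MCD_EmKCs) and 0, and edgeR and DESeq2 on recovered reads also called 0 lower. The share of all genes at an unadjusted p under 0.05 was not worked out. Unadjusted counts, here and for the lists below, therefore have no such share beside them. The 3 comparisons share their samples, so they are not independent of each other.

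**Figure D1:**
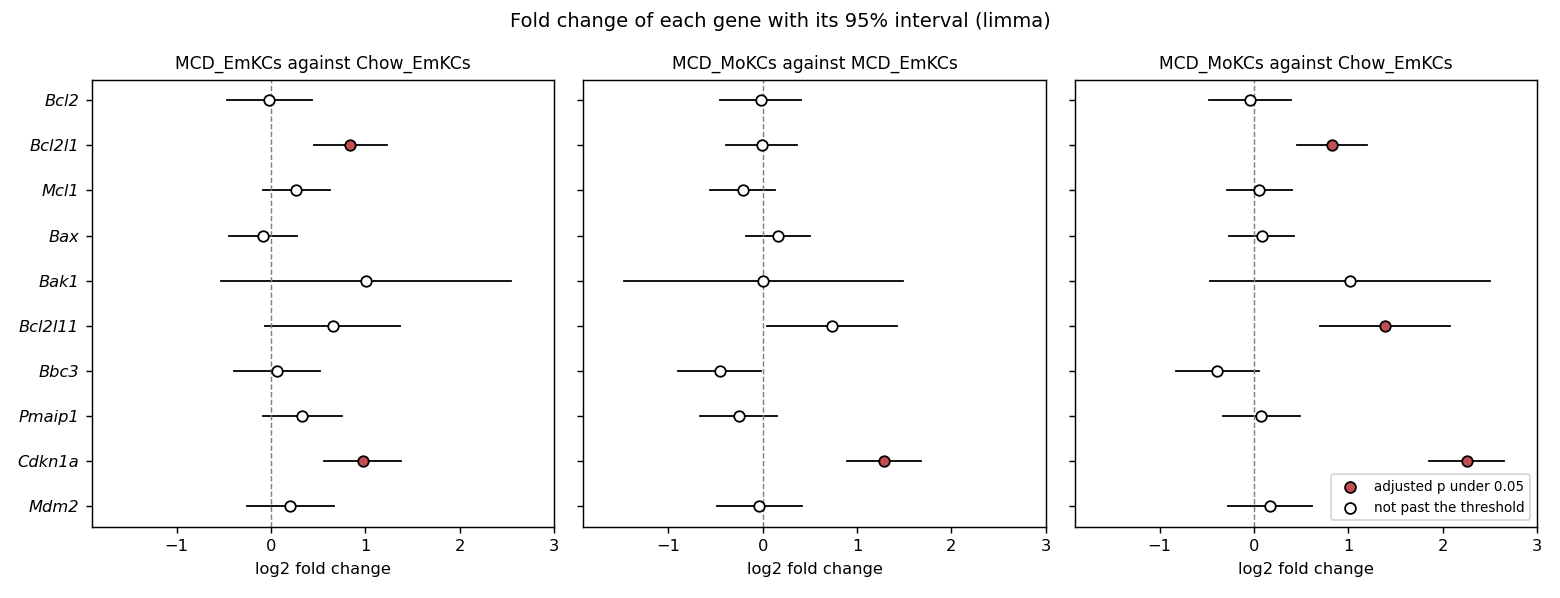
Log2 fold change (log2(value + 1) scale) of each of the 10 genes in the 3 comparisons, with 95% intervals; red points passed the threshold. Cdkn1a lies above 0 in all 3 comparisons, and Bak1 has the widest intervals.

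Cdkn1a encodes p21, which inhibits cyclin-dependent kinases. Its level had a lowest value of 2476, a median of 3093 and a highest value of 4251 normalised reads in MCD_MoKCs. MCD_EmKCs ran from 1053 through a median of 1360 to 1498, and Chow_EmKCs from 448 through 694 to 990. No library of a group overlapped another group, and the order MCD_MoKCs, MCD_EmKCs, Chow_EmKCs held throughout. Cdkn1a averaged 3213 ± 591 in MCD_MoKCs (SD, n = 7), 1314 ± 192 in MCD_EmKCs (n = 6) and 696 ± 226 in Chow_EmKCs (n = 6). Cdkn1a rose by 0.97 (SE 0.20, limma adjusted p = 0.003565) in MCD_EmKCs against Chow_EmKCs. MCD_MoKCs exceeded MCD_EmKCs by 1.28 (SE 0.19, adjusted p = 3.048e-05) and Chow_EmKCs by 2.25 (SE 0.19, adjusted p = 1.644e-09). The column names carry library numbers, which were divided here at a gap between 33 and 37; no label names such sets. Within numbers up to 33 the diet difference was 0.98 (adjusted p = 0.06564), and within numbers from 37 it was 0.96 (adjusted p = 0.1238), so its size held while neither smaller fit passed the threshold. An antisense gene shares 273 exon bases with Cdkn1a and is not analysed here.

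**Figure D2:**
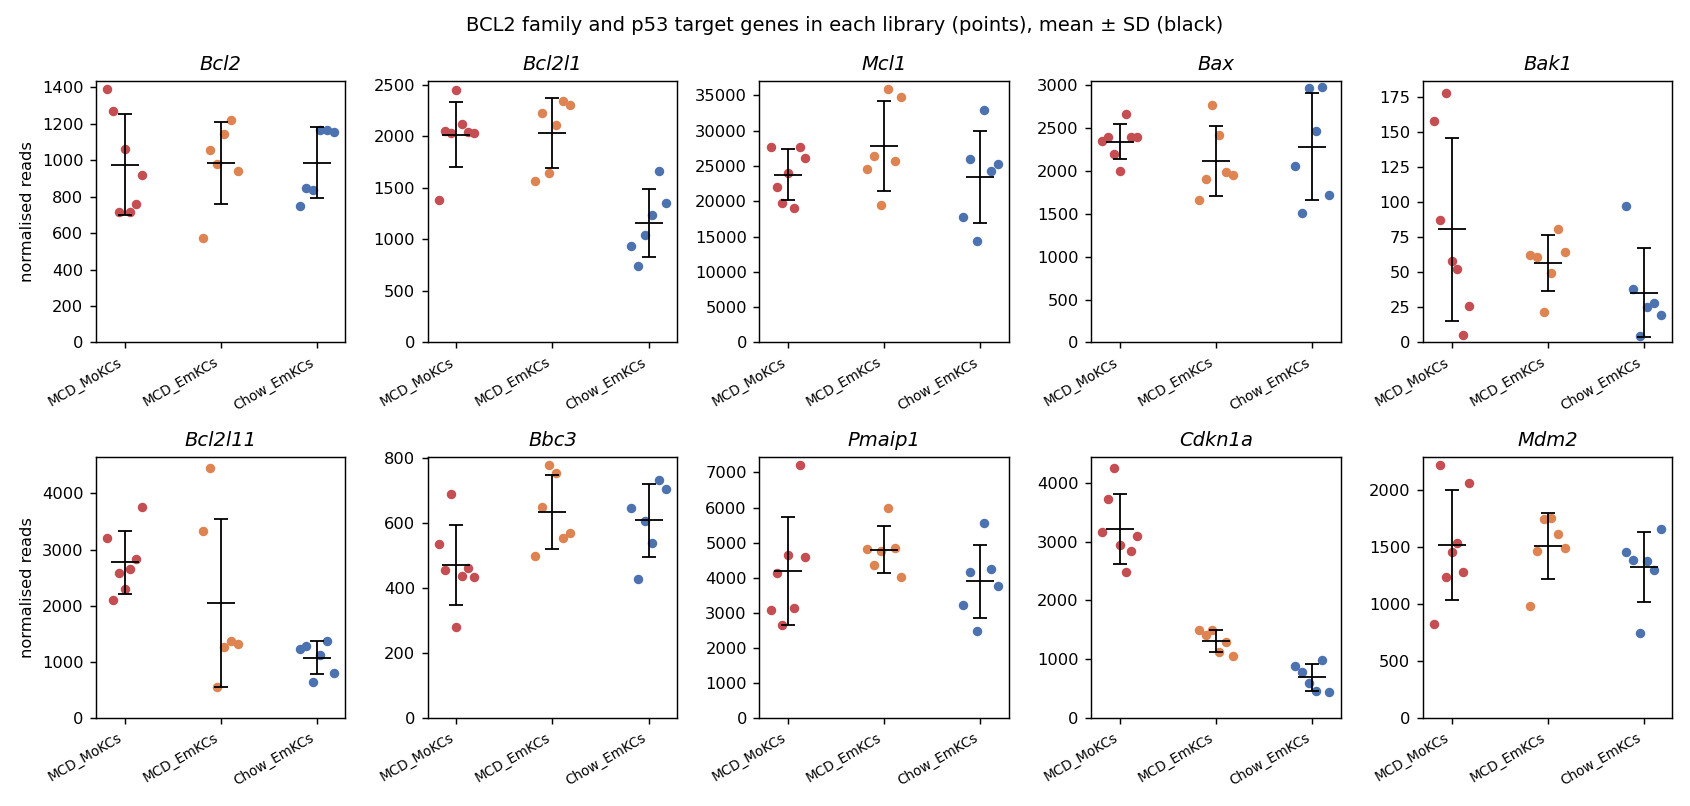
Normalised reads of each gene in each library, by group, with MCD_MoKCs (n = 7) left, then MCD_EmKCs (n = 6) and Chow_EmKCs (n = 6); each point is 1 library and the bar is the group mean with its SD. For Cdkn1a the MCD_MoKCs points run from 2476 to 4251 and the Chow_EmKCs points from 448 to 990.

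Among anti-apoptotic members, Bcl2l1, which encodes BCL-XL, moved with the diet. It had 1381, 2045 and 2449 normalised reads (lowest, median, highest) in MCD_MoKCs, 1563, 2167 and 2336 in MCD_EmKCs, and 739, 1137 and 1665 in Chow_EmKCs. Both MCD groups lay mostly above chow: 6 of 7 MCD_MoKCs libraries and 4 of 6 MCD_EmKCs libraries exceeded every Chow_EmKCs library. Bcl2l1 rose by 0.84 (SE 0.19, limma adjusted p = 0.008194) in MCD_EmKCs against Chow_EmKCs and by 0.83 (SE 0.18, adjusted p = 0.001601) in MCD_MoKCs against Chow_EmKCs. Between MCD_MoKCs and MCD_EmKCs the difference was -0.01 (95% interval -0.38 to 0.36). Within numbers up to 33 the diet difference was 1.00 (adjusted p = 0.07485) and within numbers from 37 it was 0.68 (adjusted p = 0.106), so neither smaller fit passed. The MCD_MoKCs against Chow_EmKCs call was lost within numbers from 37 (0.54, adjusted p = 0.1641) and without MCD_MoKCs 4 to 7 (0.67, adjusted p = 0.06862).

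Mcl1 encodes a short-lived survival protein and had the highest level per kilobase of exon of the 10 genes. Its mean was 6951 ± 1057 normalised reads per kb in MCD_MoKCs, 8143 ± 1862 in MCD_EmKCs and 6857 ± 1923 in Chow_EmKCs. Of the summed level per kb of Bcl2, Bcl2l1 and Mcl1, Mcl1 made up 91.2 to 94.7% in MCD_MoKCs, 92.1 to 94.7% in MCD_EmKCs and 93.0 to 96.8% in Chow_EmKCs. Other anti-apoptotic genes were not part of this sum. The Mcl1 log2 fold change of 0.27 (95% interval -0.09 to 0.62) under the diet did not pass. Bcl2, the founding survival gene of the family, averaged 975 ± 275 normalised reads in MCD_MoKCs, 985 ± 226 in MCD_EmKCs and 987 ± 195 in Chow_EmKCs. Its fold changes lay between -0.04 and -0.02, with none past the threshold. Bcl2 shares 558 exon bases with D630008O14Rik on the opposite strand, which had 33.6 to 353 normalised reads. Whether counting used strand is not given in the sources used here.

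**Figure D3:**
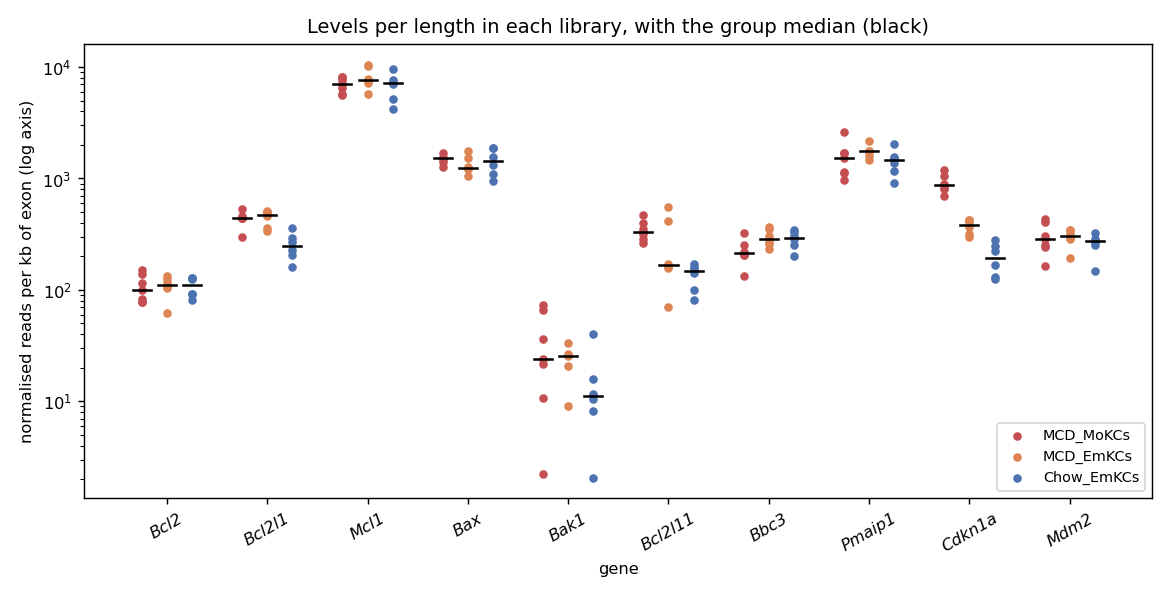
Normalised reads per kilobase of exon, on a log axis, of the 10 genes, with MCD_MoKCs left of MCD_EmKCs and Chow_EmKCs; points are libraries and black bars group medians. Mcl1 lies highest, with a mean of 6951 per kb in MCD_MoKCs, 8143 in MCD_EmKCs and 6857 in Chow_EmKCs, and Bak1 lowest, with a mean of 33.5 in MCD_MoKCs, 23.5 in MCD_EmKCs and 14.8 in Chow_EmKCs.

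The effectors did not pass the test in any comparison. Bax had 1996, 2391 and 2663 normalised reads (lowest, median, highest) in MCD_MoKCs, 1659.8, 1967 and 2769 in MCD_EmKCs, and 1505, 2267 and 2976 in Chow_EmKCs. These ranges overlap widely, and the log2 fold changes were -0.08 (95% interval -0.44 to 0.27) under the diet and 0.16 (-0.18 to 0.51) between MCD_MoKCs and MCD_EmKCs. Bax shares 192 exon bases with Gm45808, not analysed here. Bak1 was low and variable, with 5.40, 57.9 and 178 normalised reads in MCD_MoKCs, 21.8, 61.6 and 80.8 in MCD_EmKCs and 4.97, 26.7 and 97.0 in Chow_EmKCs. MCD_MoKCs 1 to 3 held 87.1 to 178 and MCD_MoKCs 4 to 7 held 5.40 to 57.9, and the group mean was 80.6. The same libraries differed in their share of mitochondrial reads, with 0.534 to 0.729% in MCD_MoKCs 1 to 3 and 0.244 to 0.359% in MCD_MoKCs 4 to 7, and its part in the Bak1 values was not tested. The interval of MCD_MoKCs against Chow_EmKCs ran from -0.47 to 2.50, and the fold change was 1.02 (SE 0.72, limma adjusted p = 0.3917). It was 2.34 without MCD_MoKCs 4 to 7 (adjusted p = 0.04375) and turned to -0.94 within numbers from 37 (adjusted p = 0.6555). Bak1 shares 437 exon bases with Ggnbp1 on the opposite strand, which had 102 to 526.02 normalised reads.

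Of the BH3-only members, Bcl2l11 encodes BIM, which binds all the main survival proteins. In MCD_MoKCs it had 2104, 2653 and 3751 normalised reads (lowest, median, highest), against 562, 1351 and 4457 in MCD_EmKCs and 649, 1178 and 1379 in Chow_EmKCs. All 7 MCD_MoKCs libraries exceeded all Chow_EmKCs libraries, and the rise was 1.39 (SE 0.33, limma adjusted p = 0.004229). MCD_EmKCs spread far wider than either other group: replicates 1 and 2 held 3327 and 4457, replicate 3 held 562 and replicates 4 to 6 held 1269 to 1372. The diet difference of 0.65 (SE 0.34, adjusted p = 0.3672) and the MCD_MoKCs against MCD_EmKCs difference of 0.74 (SE 0.33, adjusted p = 0.1783) did not pass. Without MCD_EmKCs 2 the MCD_MoKCs against MCD_EmKCs difference was 1.03 (adjusted p = 0.02236), and within numbers from 37 it was 1.30 (adjusted p = 0.01158). The MCD_MoKCs against Chow_EmKCs call was lost within numbers up to 33 (1.33, adjusted p = 0.2082) and without MCD_MoKCs 4 to 7 (1.31, adjusted p = 0.06909).

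Bbc3 encodes PUMA and Pmaip1 encodes NOXA, both p53 targets. Bbc3 had 281, 456 and 689 normalised reads (lowest, median, highest) in MCD_MoKCs, 498, 609 and 779 in MCD_EmKCs and 428, 627 and 731 in Chow_EmKCs. It was lower in MCD_MoKCs than in MCD_EmKCs at an unadjusted p of 0.04434 (-0.45, SE 0.21), but limma's adjusted p was 0.2007. Pmaip1 had 2640.1, 4133 and 7209.9 in MCD_MoKCs, 4026, 4792 and 5982 in MCD_EmKCs and 2474, 3968 and 5554 in Chow_EmKCs. Its groups overlap, and the diet difference was 0.33 (95% interval -0.09 to 0.75). Mdm2, which encodes the ligase that degrades p53, had 826, 1454 and 2218 in MCD_MoKCs, 983, 1552 and 1759 in MCD_EmKCs and 751, 1386 and 1655 in Chow_EmKCs. Its fold changes were 0.21 (95% interval -0.26 to 0.67) under the diet, -0.03 (-0.48 to 0.41) between MCD_MoKCs and MCD_EmKCs and 0.17 (-0.27 to 0.62) against chow. Of the 5 p53 targets among the members (Cdkn1a, Mdm2, Bbc3, Pmaip1 and Bax), only Cdkn1a passed the test in these comparisons.

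**Figure D4:**
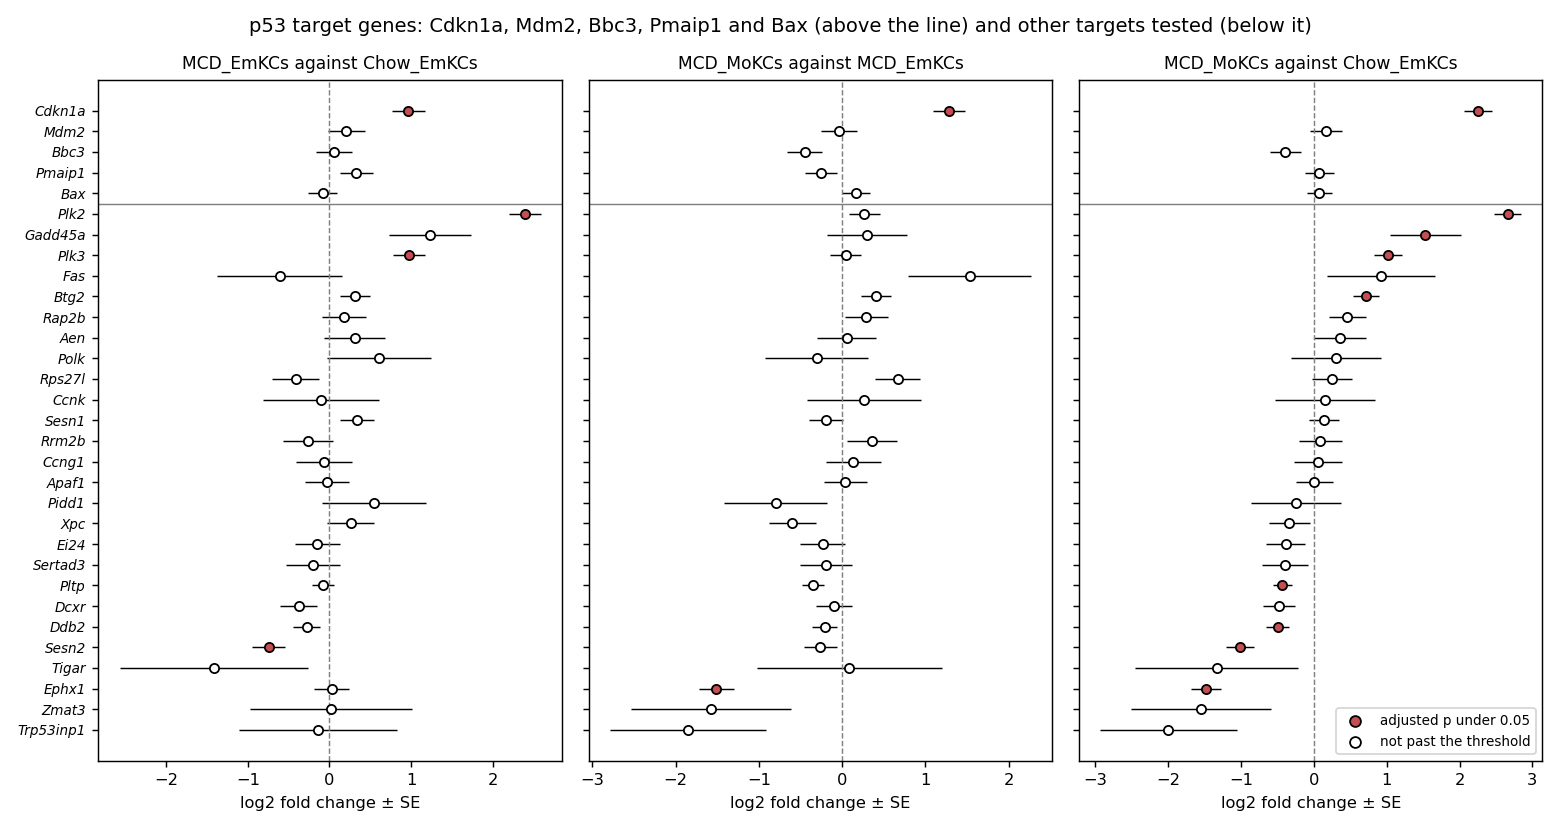
Log2 fold changes of Cdkn1a, Mdm2, Bbc3, Pmaip1 and Bax (above the line) and of 26 other p53 targets tested (below it), in the 3 comparisons, with bars of 1 SE; red points passed the threshold. Cdkn1a reads 0.97, 1.28 and 2.25, Plk2 2.40 and 2.66 in the MCD groups against Chow_EmKCs, and Mdm2 stays near 0.

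The wider p53 target list, chosen with earlier results known, held 26 tested genes of 30. Of these, 3 were called under the diet, 1 between MCD_MoKCs and MCD_EmKCs and 8 between MCD_MoKCs and Chow_EmKCs, where 4.08%, 10.5% and 16.8% of all genes were called in the same comparisons. Under the diet 2 rose and 1 fell: the stress kinases Plk2 (2.40, SE 0.19, limma adjusted p = 3.695e-09) and Plk3 (0.97, SE 0.20, adjusted p = 0.003161) were higher, and Sesn2, a sestrin that restrains mTORC1, was lower (-0.75, SE 0.20, adjusted p = 0.0328). The Sesn2 diet call was lost without any 1 of Chow_EmKCs 1, 3, 5 and 6 or MCD_EmKCs 2, 3, 4 and 6 (adjusted p up to 0.08781). In MCD_MoKCs against MCD_EmKCs 0 rose (3 at an unadjusted p under 0.05, and 0 by edgeR and DESeq2) and 1 fell, the epoxide hydrolase Ephx1 (-1.51, SE 0.21, adjusted p = 8.706e-06). In MCD_MoKCs against Chow_EmKCs 4 rose and 4 fell, led by Plk2 (2.66), Gadd45a, a stress-response gene (1.53), Ephx1 (-1.48) and Plk3 (1.02). The Gadd45a call was lost without Chow_EmKCs 1, MCD_MoKCs 6 or MCD_MoKCs 7 (adjusted p 0.05134 to 0.0827). The list's median log2 fold change was -0.05 under the diet, -0.03 between MCD_MoKCs and MCD_EmKCs and 0.04 between MCD_MoKCs and Chow_EmKCs.

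Of 10 tested regulators of p53, Atm, the DNA damage kinase, fell under the diet (-2.16, adjusted p = 0.04832) and was higher in MCD_MoKCs than in MCD_EmKCs (2.04, adjusted p = 0.02792), by limma. edgeR called neither. Leaving out 1 library ended the diet call in 13 of 19 fits (adjusted p up to 0.1373), in all but those without Chow_EmKCs 4 or 5, MCD_EmKCs 3 or 4, or MCD_MoKCs 2 or 5. The MCD_MoKCs against MCD_EmKCs call ended in 7 of 19 (up to 0.07236), those without MCD_EmKCs 1, 2, 5 or 6 or MCD_MoKCs 3, 5 or 6. Trp53 itself averaged 782 ± 99.2 normalised reads in MCD_MoKCs, 840.4 ± 154 in MCD_EmKCs and 831 ± 194 in Chow_EmKCs. Among the remaining BCL2 genes, 0 anti-apoptotic genes were tested. Of those that were tested, no gene passed: 0 of 4 BH3-only genes (Bid, Bad, Bik, Bmf), 0 of 6 other family genes and not the effector-like Bok. Bik was at 0 in 4 of 6 MCD_EmKCs and 3 of 6 Chow_EmKCs libraries. For each list in this paragraph, the shares of all genes called were 4.08% under the diet, 10.5% between MCD_MoKCs and MCD_EmKCs and 16.8% between MCD_MoKCs and Chow_EmKCs. At such shares, 0 calls in lists this short say little about the lists. edgeR and DESeq2 also called 0 of these, and at an unadjusted p under 0.05 limma gave 1 other family gene, lower in MCD_MoKCs than in Chow_EmKCs. Of 14 caspase and apoptosome genes, 0 passed in each comparison by limma, edgeR or DESeq2. At an unadjusted p under 0.05, 1 caspase or apoptosome gene was lower under the diet, 1 in MCD_MoKCs against MCD_EmKCs and 3 in MCD_MoKCs against Chow_EmKCs, with 0 higher. Without the share of all genes at that threshold, no direction is read from these unadjusted counts.

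Outside the BCL2 family, 2 of 10 death receptor and necroptosis genes were lower in MCD_MoKCs in each comparison, where 4.9% of all genes were lower against MCD_EmKCs and 8.08% against Chow_EmKCs. The necroptosis kinase Ripk3 fell by 0.92 against MCD_EmKCs (limma adjusted p = 3.17e-05) and by 1.02 against Chow_EmKCs (adjusted p = 4.202e-06). Mlkl, the executor of necroptosis, fell by 0.97 (adjusted p = 0.01227) and by 1.03 (adjusted p = 0.004406). Of 6 inhibitors of apoptosis tested, Birc5, which also serves mitosis, was higher in MCD_MoKCs than in Chow_EmKCs (1.83, adjusted p = 0.008602). Over all genes, 2.5% were higher and 1.58% lower under the diet. In MCD_MoKCs, 5.64% were higher than in MCD_EmKCs and 8.68% higher than in Chow_EmKCs. Among the 12 survival inputs tested, Pim3, a survival kinase, was higher in MCD_EmKCs than Chow_EmKCs (0.86), in MCD_MoKCs than MCD_EmKCs (0.78) and in MCD_MoKCs than Chow_EmKCs (1.64). Pim1, a related kinase, averaged 3685 ± 953 normalised reads in MCD_MoKCs, 2628 ± 631 in MCD_EmKCs and 1849.6 ± 689 in Chow_EmKCs. It passed the threshold in MCD_MoKCs against Chow_EmKCs (1.03, adjusted p = 0.001166), while its values of 0.55 under the diet (adjusted p = 0.2084) and 0.48 between MCD_MoKCs and MCD_EmKCs (adjusted p = 0.1816) did not pass. Csf1r, the receptor that sustains macrophages, was lower in MCD_MoKCs than in MCD_EmKCs (-0.52, adjusted p = 0.0003466) and Chow_EmKCs (-0.86, adjusted p = 1.358e-07). Its diet value was -0.34 (adjusted p = 0.04619), a call that edgeR and DESeq2 did not make. It was lost in 15 of 19 fits that left out 1 library (adjusted p up to 0.1185), in all but those without Chow_EmKCs 3, MCD_EmKCs 1, MCD_MoKCs 1 or MCD_MoKCs 4.

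Since Cdkn1a acts on the cell cycle, the cell cycle list is given beside it. Of 26 genes tested, 2 were higher and 1 lower in MCD_EmKCs than in Chow_EmKCs, 6 higher and 0 lower in MCD_MoKCs than in MCD_EmKCs, and 8 higher and 0 lower in MCD_MoKCs than in Chow_EmKCs. Over all genes tested, 2.5% were higher and 1.58% lower under the diet, 5.64% higher in MCD_MoKCs than in MCD_EmKCs and 8.68% higher in MCD_MoKCs than in Chow_EmKCs. Under the diet the proliferation marker Mki67 (1.33) and the kinase Cdk6 (1.21) were higher and cyclin D3 (Ccnd3, -0.71) lower. The Mki67 call was lost without MCD_EmKCs 6 (limma adjusted p = 0.05205), that of Cdk6 without any 1 of Chow_EmKCs 1, 3, 4, 5 and 6 or MCD_EmKCs 1, 2, 5 and 6 (up to 0.08883), and that of Ccnd3 without any 1 of Chow_EmKCs 2, 3 and 5 or MCD_EmKCs 1, 3, 4, 5 and 6 (up to 0.08104). The largest values in MCD_MoKCs against MCD_EmKCs were those of cyclin D2 (Ccnd2, 3.37), the topoisomerase Top2a (3.05), the mitotic kinase Aurka (2.43) and the ribonucleotide reductase subunit Rrm2 (1.87). The Top2a call was lost without MCD_MoKCs 3 (adjusted p = 0.0519), that of Aurka without MCD_EmKCs 2 (0.06014) and that of Rrm2 without MCD_EmKCs 1 (0.06974). Against Chow_EmKCs they were Ccnd2 (2.96), Rrm2 (2.00), Mki67 (1.97) and Birc5 (1.83). Of the other CDK inhibitors, 4 were tested: Cdkn2c was higher in MCD_MoKCs than in Chow_EmKCs (2.38, adjusted p = 0.003758), and Cdkn2b had 5.06 ± 8.34 normalised reads in MCD_MoKCs and 65.1 ± 51.7 in Chow_EmKCs. The Cdkn2b call (adjusted p = 0.0178) was lost without Chow_EmKCs 5 (adjusted p = 0.05279) and was not made by edgeR.

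Some other measures differed between the groups beside Cdkn1a, Bcl2l1 and Bcl2l11. The neutrophil, B cell, stellate and endothelial sums given below overlapped between all groups. The 12 genes that respond to cell isolation summed to 390236 to 585601 normalised reads in MCD_MoKCs, 531535 to 771533 in MCD_EmKCs and 362379 to 514101 in Chow_EmKCs, and 7 of 12 were higher under the diet. Between MCD_MoKCs and MCD_EmKCs 2 isolation genes were higher and 3 lower, and 4 were higher in MCD_MoKCs than in Chow_EmKCs. Beside these counts and those below, 2.5% of all genes tested were higher and 1.58% lower under the diet. In MCD_MoKCs, 5.64% were higher and 4.9% lower than in MCD_EmKCs, and 8.68% higher and 8.08% lower than in Chow_EmKCs. The 6 platelet markers summed to 1596 to 4621 in MCD_MoKCs, 913 to 1525 in MCD_EmKCs and 203 to 651 in Chow_EmKCs, which is the order of Cdkn1a, also without overlap. Pf4 made up most of that sum, with 1463 to 4586 in MCD_MoKCs, 701 to 1432 in MCD_EmKCs and 182 to 583 in Chow_EmKCs. The order of the sum is therefore mainly that of Pf4. The platelet gene Gp9 stayed at or below 13.8 in each library, and Gp1bb was listed at 0 in every Chow_EmKCs library. Of the 6 platelet markers only 3 were tested, with 2 higher under the diet. In MCD_MoKCs, 1 was higher than in MCD_EmKCs and 2 higher than in Chow_EmKCs. The 12 T and NK cell markers summed to 465 to 904 in MCD_MoKCs, 14.2 to 188 in MCD_EmKCs and 75.7 to 127 in Chow_EmKCs. Of 10 T and NK markers tested, 6 were higher in MCD_MoKCs than in MCD_EmKCs and 5 higher than in Chow_EmKCs. The 8 endothelial markers summed to 3861 to 13787 in MCD_MoKCs, 9384 to 11419 in MCD_EmKCs and 9949 to 11074 in Chow_EmKCs. Of these 8, 5 were higher and 3 lower in MCD_MoKCs than in Chow_EmKCs, 2 higher and 3 lower than in MCD_EmKCs, and 1 higher under the diet. Neutrophil markers summed to 1525 to 4609.7 in MCD_MoKCs, 1927 to 2838 in MCD_EmKCs and 1887 to 3363 in Chow_EmKCs, and of 4 tested, 3 were higher in MCD_MoKCs than in Chow_EmKCs and 1 higher than in MCD_EmKCs. B cell markers summed to 638 to 1015 in MCD_MoKCs, 155 to 1596 in MCD_EmKCs and 214 to 687 in Chow_EmKCs. Stellate cell markers summed to 258 to 1308 in MCD_MoKCs, 577 to 891 in MCD_EmKCs and 414 to 763 in Chow_EmKCs. The 12 hepatocyte markers summed to 562 to 1622 in MCD_MoKCs, 753 to 4024 in MCD_EmKCs and 4523 to 12859.6 in Chow_EmKCs, with 11 lower in MCD_MoKCs and 7 lower in MCD_EmKCs than in Chow_EmKCs. Mitochondrial genes took 0.244 to 0.729% of reads in MCD_MoKCs, 0.155 to 0.317% in MCD_EmKCs and 0.511 to 1.05% in Chow_EmKCs. The part of these measures in the member results was not tested.

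By the root mean square of the difference between centred log2 profiles over the 19 libraries, the tested genes most like Cdkn1a were Ccrl2 (0.27), Cxcl2 (0.28), Ccl3 (0.30), Rab7b (0.35) and Gadd45b (0.36), where Cdkn1a's own profile had a root mean square of 0.98. For Bcl2l11 they were Mapk6 (0.45), Gch1 (0.50), Azin1 (0.51), Plxna1 (0.51) and Rnf149 (0.51), against 0.84 for its own profile. Likeness here follows the group differences as well as the spread within groups.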

How the data were processed

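The authors deposited 1 table whose values are a normalised read signal: reads per gene divided by 1 factor per library, since 100% of values are whole multiples of a library's step within 0.001 reads. Per the submitters' processing notes, STAR, DESeq2 and mm10 were used; the counting tool was not given in the sources used here. limma 3.58.1 (R 4.3.3, trend and robust) was run on log2(value + 1) with 1 mean per group, two-sided; edgeR 4.0.16 and DESeq2 1.42.0 on the recovered reads were alternatives, as were other pseudocounts, filters, scalings, sample sets and fits without 1 library. The limma step was tested on simulated data with the same dispersion for every gene and no outlying libraries. It therefore does not show how the step behaves for genes as variable as Bak1 or Bcl2l11 here. Positions are mm10 (GENCODE M21), promoters RefSeq. The members and lists were chosen with earlier results of these data known. All members are named; of each pathway list, every called gene where at most 4 were called, otherwise the 4 largest fold changes, with the isolation list given as counts and sums. Genes most alike come from the 2 members with the widest range of group means. Bcl2l2, Bcl2a1a, Bcl2a1b, Bcl2a1d and Cdkn2d are not analysed here.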

Additional observations from a re-analysis of the deposited data

Results flagged for a closer look

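In 30 groups of values checked (10 genes in 3 groups), 2 held a sample far from the others, where chance gives about 1 in 20. Bcl2l1 in MCD_MoKCs replicate 1 was 1381.32 normalised reads, below the other libraries of its group at 2026.1 to 2448.73. Bak1 in Chow_EmKCs replicate 1 was 96.9724 normalised reads, above the other libraries of its group at 4.9722 to 38.4803.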

How the results depend on the processing

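Of the called member results, 192 of 200 alternative values kept direction and threshold and 8 lost the threshold; of the results not called, 728 of 797 kept both, 3 passed the threshold and 66 changed sign. With the replicate block, the diet comparison called 608 genes and the same number of members, 2, and the block changed no member call. Same-numbered samples correlated at most 0.0759. Low correlations cannot show that samples are unpaired, and a pairing other than by replicate number was not tried. Within library numbers up to 33, 179, 870 and 1257 genes were called in MCD_EmKCs against Chow_EmKCs, MCD_MoKCs against MCD_EmKCs and MCD_MoKCs against Chow_EmKCs, and within numbers from 37, 263, 565 and 1288. In both sets 0 members passed in the diet comparison, and 2 passed in MCD_MoKCs against MCD_EmKCs from 37. These fits hold fewer samples. A value of at least 10 in every library gave 1034 genes in MCD_MoKCs against MCD_EmKCs and 1638 in MCD_MoKCs against Chow_EmKCs, and leaving out MCD_MoKCs 1 to 3 gave 1010 in MCD_MoKCs against MCD_EmKCs. Leaving out 1 library gave 468 to 620, 1288 to 1596 and 2193 to 2590 genes, and 1 to 2 members in MCD_MoKCs against MCD_EmKCs (2 without MCD_EmKCs 2).

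Signs changed among results that were not called. In MCD_EmKCs against Chow_EmKCs, Bcl2 was 0.0032 by edgeR and 0.0499 up to 33, and Bbc3 -0.0722 from 37. In MCD_MoKCs against MCD_EmKCs, Bak1 was -0.0028 with pseudocount 0.5, -0.00487 with TMM, -0.16 with a term for the number set, -2.30 from 37 and -0.99 without MCD_MoKCs 1 to 3. Mdm2 was 0.00878 by DESeq2, 0.0240 with the set term, 0.0248 up to 33, 0.00799 from 37 and 0.0714 without MCD_MoKCs 1 to 3. Bcl2 was 0.0260 with the set term, 0.24 up to 33 and 0.17 without MCD_MoKCs 4 to 7. Bcl2l1 was 0.0626, 0.14 and 0.10 with the set term, up to 33 and without MCD_MoKCs 1 to 3, and Pmaip1 0.24 from 37. In MCD_MoKCs against Chow_EmKCs, Bcl2 was 0.0078 with the set term, 0.29 up to 33 and 0.15 without MCD_MoKCs 4 to 7; from 37 Mcl1 was -0.0197 and Bak1 -0.94; Pmaip1 was -0.23 without MCD_MoKCs 4 to 7. Of the list genes called, Dusp1, an isolation-response gene, was 0.0055 from 37 in MCD_MoKCs against MCD_EmKCs, where the fit to all libraries gave -0.61 (adjusted p = 0.01522). The cause was not tested.

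Without 1 library, ranges that crossed 0 were, under the diet, Bcl2 -0.0925 to 0.13, Bax -0.20 to 0.0016 and Bbc3 -0.0365 to 0.13. In MCD_MoKCs against MCD_EmKCs they were Bcl2 -0.17 to 0.0469, Bcl2l1 -0.0831 to 0.0764, Bak1 -0.28 to 0.52 and Mdm2 -0.15 to 0.10. In MCD_MoKCs against Chow_EmKCs they were Bcl2 -0.13 to 0.0268, Mcl1 -0.0746 to 0.16, Bax -0.0321 to 0.16 and Pmaip1 -0.0646 to 0.19. Of 60 pathway and isolation list calls, an alternative added after seeing the data, 28 were lost up to 33 and 33 from 37. Bak1 had the fewest reads of the 10 genes, as few as 4 in a library.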
